A study of Homo sapiens with 3 samples.

Results

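Antisense long non-coding RNAs whose symbol ends in -AS1 were examined in RNA recovered by the zinc-finger protein ZFP36L1 from lysate of J82 cells, a human bladder cancer cell line. Members were the GENCODE 29 genes that are not protein-coding and carry such a symbol, with OIP5-AS1 left out, whose estimated counts averaged 10 or more over the 3 libraries. This kept 256 of the 1060 -AS1 genes with a row in the deposited tables, of which 612 had at least 1 count, and the 256 stand among 14082 genes of all kinds that reached the same minimum. The libraries held RNA bound by GST-ZFP36L1-Ala (a mutant form; the residues changed are not named in the labels), RNA bound by GST-ZFP36L1 wild type, and RNA bound by GST alone, the fusion tag without ZFP36L1. All came from 1 cell line grown to near confluence and lysed in a protein extraction buffer, with 1 library for each protein and sequencing on a BGISEQ-500. The labels name neither how the proteins were made nor how much RNA each recovered.

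Antisense RNAs are transcribed from the strand opposite another gene, called here the sense gene, often from a shared promoter region or across its end. Some act on the transcription, splicing or stability of the sense mRNA, others host small nucleolar RNAs in their introns, and for most no function is known. ZFP36L1 belongs to the tristetraprolin family, whose tandem zinc fingers bind AU-rich elements with the core UAUUUAU and bring in the deadenylation and decay machinery, and its best known targets carry that core in the untranslated region after the coding sequence.

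The choice by mean count used the same values that are compared below, so the number of members says nothing about binding. Just inside the minimum were TMEM202-AS1, with 16 counts for Ala, 2 for wild type and 12 for GST, PAN3-AS1 with 4, 15 and 12, and DLX6-AS1 with 12, 15 and 4, in the same order of libraries. Just outside were PAQR9-AS1 with 9, 10 and 10 counts, KCNMA1-AS1 with 10, 3 and 16, and SLC2A1-AS1 with 4, 11 and 14. By GENCODE type 190 members were annotated as antisense, 33 as processed transcripts and 27 as lincRNAs. A further 2 were bidirectional promoter RNAs, 2 transcribed unprocessed pseudogenes and 1 a transcribed unitary pseudogene. SLC44A3-AS1, among the most abundant members, was annotated as a transcribed processed pseudogene. The symbol DNAJC9-AS1 stands for 2 gene identifiers, so there were 255 distinct symbols.

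UAUUUAU was searched for on the transcribed strand of each member's main transcript, the one with the highest mean TPM (the deposited abundance, scaled for transcript length and library), counting overlapping matches. The search covered the 234 members whose main transcript had the same length in GENCODE 29 as in the deposited tables. It found the core in 36 of them (15.4%), against 14.2% of 1878 other searched genes that are not protein-coding. The longer UUAUUUAUU, which contains the core, was in 13 members (5.56%), against 3.62% of those other genes. Shares rose with transcript length in the members: 3 of 122 transcripts under 1000 bases, 13 of 57 from 1000 to under 2000 bases and 20 of 55 of 2000 bases or more held the core. The windows below, from GENCODE 29 transcripts, show the core in capitals with its flanks, 5′ to 3′, first in 4 members that were at least 2-fold higher in the wild-type library than in the GST library, then in 2 that were not, and last in 2 that were lower. These 8 were picked after their values were seen, to show that the same letters stood in members of each kind.
RBM26-AS1: auauacaguauUAUUUAUuguaaauucca
BOLA3-AS1: auugucuaauuUAUUUAUuacaguauuaa
MBNL1-AS1: ugugugugacuUAUUUAUuauuuggaguc
SREBF2-AS1: acacaaauguaUAUUUAUuagcaagaaaa
CBR3-AS1: auuuuuuaaauUAUUUAUuuauuuauuua
ZNF674-AS1: aaauauuuucuUAUUUAUuuauuuauuuu
RUSC1-AS1: gguuacacgauUAUUUAUugagagccucc
C6orf47-AS1: ugugacacaguUAUUUAUugcugagugag

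In GRCh38 these windows lie at chr13:79422607-79422635 (plus strand) for RBM26-AS1, chr2:74149018-74149046 (plus) for BOLA3-AS1, chr3:152263379-152263407 (minus) for MBNL1-AS1 and chr22:41832130-41832158 (minus) for SREBF2-AS1. Those of CBR3-AS1, ZNF674-AS1, RUSC1-AS1 and C6orf47-AS1 lie at chr21:36131915-36131943 (minus), chrX:46547780-46547808 (plus), chr1:155320635-155320663 (minus) and chr6:31658365-31658393 (plus). CBR3-AS1 held 5 cores, ZNF674-AS1 held 4, MBNL1-AS1 held 3 and SREBF2-AS1 held 2, whereas RBM26-AS1, BOLA3-AS1, RUSC1-AS1 and C6orf47-AS1 held 1 each. A match describes letters only and is not evidence of a bound site.

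The tables held 19153483 estimated counts for Ala, 19845386 for wild type and 19137867 for GST. Members took 42802, 33904 and 41803 of them in the same order, or 0.233%, 0.178% and 0.227% of the counts assigned to GENCODE 29 genes. At least 10 counts were found for 239 members in the Ala library, 221 in the wild-type library and 232 in the GST library, and a different member was at 0 in each. Mitochondrial genes took 7.53%, 15.5% and 10.6% of counts. Of 16 epithelial and urothelial markers 7 averaged 10 counts or more, among them KRT7, KRT8 and KRT18, while UPK3A, UPK3B, KRT5, KRT19 and KRT20 were at 0 in every library; of 8 mesenchymal markers 5 did, led by VIM. The name of the GST table carries another code than the 2 other tables; the labels do not say what it stands for, and whatever it marks cannot be told apart from the GST group.

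Every ratio below is of TMM-scaled counts on a log2 scale, with a 95% interval in brackets that covers counting error only, since there is 1 library per protein and no replicate check. The counts are estimates that divide reads among transcripts sharing sequence, and the interval leaves that division out. The main transcript shared no stretch of 31 bases with another gene in 56 members. In 38 members it shared over 50% of such stretches. A gene is called higher or lower where the ratio is at least 2-fold and the interval excludes no difference. A ratio compares shares of libraries, not amounts of RNA bound, and no p-value can be given. The median interval of wild type over GST was 0.65 wide on the log2 scale for the 74 members with a mean of 100 counts or more, 1.31 for the 76 from 30 to under 100, and 2.49 for the 106 from 10 to under 30.

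By TPM, which allows levels of different genes to be compared, the leading member differed between libraries. LRRC75A-AS1, a host of small nucleolar RNAs later renamed SNHG29, led the Ala library at 367.9 TPM and the GST library at 370.4 TPM but stood at 40.2 TPM in the wild-type library. CHMP1B-AS1 led the wild-type library at 316.8 TPM, against 20.2 TPM for Ala and 66.1 TPM for GST. EPB41L4A-AS1, a p53-regulated RNA that hosts a small nucleolar RNA, came second there at 162.4 TPM, against 25.7 TPM for Ala and 25.1 TPM for GST. IER3-AS1 followed with 50.2 TPM for Ala, 117.6 TPM for wild type and 34.5 TPM for GST. DNAJC9-AS1 and ARAP1-AS1 varied less, at 106.7, 88.3 and 118.7 TPM and at 102.4, 78.6 and 79.0 TPM for Ala, wild type and GST.

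Compared with GST alone, wild-type ZFP36L1 recovered a larger share of 50 members and a smaller share of 71, and 135 were not called. The called shares were 19.5% higher and 27.7% lower, against 25.5% and 34.2% of all 14082 genes, so a smaller share of members was called in either direction. Members also had fewer counts, with a median mean count of 39.2 against 272 over all genes, and intervals widen as counts fall. How far this entered the shares was not tested. Among the 2037 other genes that are not protein-coding 18.8% were higher, close to the members' share, and 36.6% lower. With a fit on the GC content and length of the main transcript over all genes removed, an alternative chosen after the data were seen, the order on the higher side turned round: 75 members (29.3%, against 20.6% of all genes) were higher and 34 (13.3%, against 22.7%) were lower. The median member was at -0.12 and the median gene at -0.04. Of the members called higher 17 were at least 4-fold higher, and of those called lower 33 were at least 4-fold lower.

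The largest increases were in members of low or moderate level. USP3-AS1, antisense to a histone H2A deubiquitinase gene at chr15:63544247-63601589 and with 62.3% of its exonic bases in exons of other genes, had 81 counts for Ala, 379 for wild type and 47 for GST, a wild type over GST ratio of 2.92 (2.49 to 3.40). STX17-AS1, which shares a promoter region but no exonic base with the autophagosome SNARE gene STX17 and lies at chr9:99886322-99906601, had 24, 312 and 45 counts, a ratio of 2.70 (2.26 to 3.20). The wild-type library stood above both others for each. ZNF793-AS1, opposite a zinc-finger gene, had 10 counts for Ala, 74 for wild type and 9 for GST, a ratio of 2.89 (1.96 to 4.14). RBM26-AS1, opposite the gene of an RNA-binding protein of the nuclear exosome pathway, had 27, 165 and 33 counts, a ratio of 2.22 (1.69 to 2.83), and carried 1 UUAUUUAUU. APOBEC3B-AS1, which overlaps the end of a cytidine deaminase gene, had 13 counts for Ala, 53 for wild type and 0 for GST. With the GST library set at a floor of 3 counts, it was 16.7-fold higher in the wild-type library, and its interval began at 3.71 on the log2 scale.

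CHMP1B-AS1 was the most abundant member among those higher for wild type. It lies at chr18:11851414-11852751 on the minus strand, with all of its exonic bases inside exons of CHMP1B, an ESCRT-III subunit gene. It had 205 counts for Ala, 2671 for wild type and 608 for GST, a wild type over GST ratio of 2.05 (1.93 to 2.18). CHMP1B itself had 733, 1553 and 665 counts, a ratio of 1.14, and the antisense ratio exceeded that of the sense gene by 0.91 (0.73 to 1.09). Strand use in the library is not given in the sources used here, so reads of the 2 RNAs cannot be told apart where they overlap. NUTM2A-AS1 had 504 counts for Ala, 1783 for wild type and 497 for GST, a ratio of 1.76 (1.62 to 1.91), and FGD5-AS1, a widely expressed RNA reported in several cancers, had 1694, 3274 and 2184, a ratio of 0.50 (0.42 to 0.58) that was not called.

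Several of the most abundant members were much lower for wild type. LRRC75A-AS1, at chr17:16438822-16478678, had 7285 counts for Ala, 663 for wild type and 6537 for GST, a wild type over GST ratio of -3.38 (-3.50 to -3.27). MIF-AS1, which overlaps the end of the cytokine gene MIF at chr22:23894426-23898930, had 3701, 249 and 2375 counts, a ratio of -3.33 (-3.53 to -3.15). VPS9D1-AS1, also known as MYU and described as a MYC-regulated RNA of colon cancer, had 1031, 62 and 1278 counts, a ratio of -4.44 (-4.84 to -4.08), or 21.7-fold lower. In all 3 the Ala and GST libraries differed by less than 2-fold, and the wild-type library lay far below both. After the GC and length fit LRRC75A-AS1 was still at -3.14, whereas VPS9D1-AS1 was at -1.87 and MIF-AS1, at -0.81, was no longer called.

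SLC44A3-AS1 and RUSC1-AS1 were likewise lowest for wild type. SLC44A3-AS1 had 3990 counts for Ala, 1531 for wild type and 5448 for GST, a wild type over GST ratio of -1.91 (-1.996 to -1.831). RUSC1-AS1 had 1336, 253 and 1529 counts, a ratio of -2.68 (-2.88 to -2.48), although its main transcript held 1 UUAUUUAUU. PXN-AS1, opposite the gene of the focal adhesion adaptor paxillin, had 319 counts for Ala, 53 for wild type and 445 for GST, a ratio of -3.14 (-3.59 to -2.74). ATP2A1-AS1, opposite a muscle calcium pump gene, had 277, 27 and 263, and LBX2-AS1, opposite a homeobox gene, had 188, 27 and 249, with ratios of -3.34 and -3.26. ATP6V0E2-AS1, opposite the gene of a proton pump subunit, had 2435 counts for Ala, 687 for wild type and 1211 for GST. Its wild type over GST ratio of -0.90 (-1.04 to -0.76) was not called. After the fit SLC44A3-AS1 (-0.71), RUSC1-AS1 (-0.84) and ATP2A1-AS1 (-0.89) were no longer called, PXN-AS1 (-2.05) and LBX2-AS1 (-1.34) were still lower, and ATP6V0E2-AS1 was called higher, at 1.14.

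**Figure D1:**
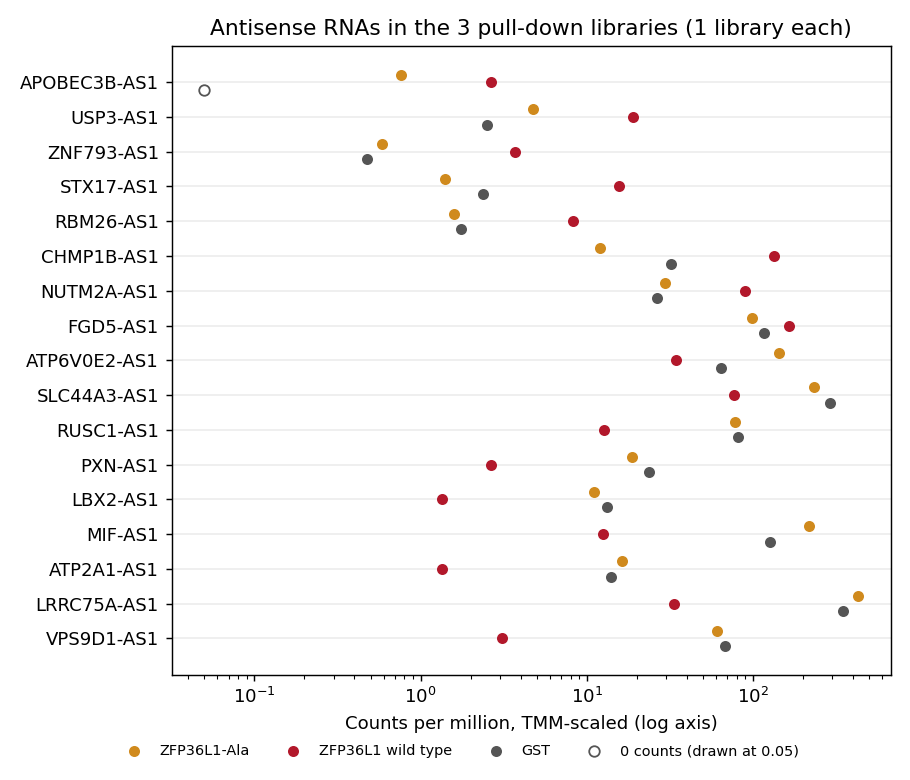
TMM-scaled CPM (counts relative to the scaled library size, log axis) of 17 members, those with the highest mean count and the 6 highest and 6 lowest called ratios of wild type over GST, with a point for each library. The wild-type point lies right of both others from APOBEC3B-AS1 down to FGD5-AS1 and left of both for the 9 RNAs below, and the Ala and GST points lie nearer to each other than to it except for ATP6V0E2-AS1 and APOBEC3B-AS1, whose 0 counts for GST are drawn as an open circle.

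The Ala mutant was much closer to GST. In all, 17 members (6.64%, against 9.00% of all genes) were higher for Ala than for GST and 14 (5.47%, against 5.13%) were lower, and 225 of 256 were not called. The median was 0.15 with TMM scaling, against 0.04 for all genes. With total-count scaling 13 members were higher and 16 lower and the median was 0.01, with all genes at -0.09. With totals from which ribosomal RNA, mitochondrial genes and the 20 genes of highest count were removed, 11 were higher and 19 lower and the median was -0.06, with all genes at -0.17. Among the 8 most abundant members ATP6V0E2-AS1 alone was higher for Ala, with an Ala over GST ratio of 1.15 (1.05 to 1.25). CHMP1B-AS1 alone was lower for Ala, at -1.43 (-1.66 to -1.20). FOXD1-AS1, opposite a forkhead factor gene and below those 8 in level, was lower as well, with 103 counts for Ala, 213 for wild type and 319 for GST and a ratio of -1.49 (-1.83 to -1.17).

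Of the called members with a mean of 100 counts or more, the other 2, named after their values were seen, were ARRDC1-AS1, with 333 counts for Ala, 61 for wild type and 173 for GST and an Ala over GST ratio of 1.08 (0.82 to 1.36), and SVIL-AS1, with 149, 124 and 71 and a ratio of 1.20 (0.79 to 1.64). After the GC and length fit ATP6V0E2-AS1 (0.57) and ARRDC1-AS1 (0.50) were no longer called higher for Ala. The further members named here had fewer counts. IDH1-AS1, inside the isocitrate dehydrogenase gene IDH1, had 31 counts for Ala, 10 for wild type and 9 for GST, an Ala over GST ratio of 1.87 (0.82 to 3.18). VAC14-AS1 had 45, 32 and 14, a ratio of 1.79 (0.93 to 2.81). TBC1D8-AS1 had 31, 24 and 3, a ratio of 3.31 (1.83 to 5.86). On the lower side HMGN3-AS1 had 17 counts for Ala, 58 for wild type and 58 for GST, a ratio of -1.60 (-2.50 to -0.83). MAST4-AS1 had 3, 24 and 20, a ratio of -2.41 (-4.99 to -0.84), and PRKAR2A-AS1 had 7, 15 and 37, a ratio of -2.18 (-3.67 to -1.08). PCF11-AS1, wholly inside exons of the polyadenylation factor gene PCF11, had 0 counts for Ala, 51 for wild type and 10 for GST. With the Ala library set at a floor of 3 counts, it was 3.02-fold lower for Ala than for GST, and its interval reached up to -1.02.

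For Ala over wild type 81 members (31.6%, against 36.1% of all genes) were higher and 50 (19.5%, against 30.1%) were lower. The median was 0.15, against 0.04 for all genes, and it was -0.02 with total-count scaling and -0.17 with the reduced totals, under which the median of all genes was -0.12 and -0.28. Because this comparison shares the wild-type library with the one against GST, a high or low value there enters both. Of the 50 members higher for wild type than for GST, 33 were lower for Ala than for wild type, and of the 71 that were lower, 64 were higher for Ala. This overlap was not counted over all genes, so it does not set members apart from genes in general. Ordered by the interval bound nearest to no difference, the highest Ala over wild type ratios were those of VPS9D1-AS1 at 4.27 (3.91 to 4.67), MIF-AS1 at 4.11 (3.93 to 4.31) and LRRC75A-AS1 at 3.68 (3.57 to 3.80). After the GC and length fit LRRC75A-AS1 stayed at 3.30, while VPS9D1-AS1 (0.89) and MIF-AS1 (0.79) were no longer called. Members of lower count reached larger ratios with wider intervals. KMT2E-AS1, opposite a trithorax-family gene, had 44 counts for Ala, 1 for wild type and 29 for GST, a ratio of 5.11 (3.13 to 11.02), and was not called after the fit. YTHDF3-AS1 had 29 counts for Ala, 0 for wild type and 7 for GST. At the same floor of 3 counts per library it was 11.3-fold higher for Ala than for wild type, and its interval began at 3.105. By the same order the lowest was PCF11-AS1, 14.6-fold lower for Ala at that floor, with an interval that reached up to -3.51. Next were CHMP1B-AS1 at -3.48 (-3.69 to -3.28), STX17-AS1 at -3.45 (-4.14 to -2.88) and KCNMB2-AS1, with 12 counts for Ala, 152 for wild type and 36 for GST, at -3.39 (-4.42 to -2.59). A2M-AS1, with 5, 67 and 20 counts, was also at -3.39 (-5.19 to -2.23), and FOXP4-AS1, with 3, 45 and 6, was at -3.48 (-6.01 to -2.04).

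**Figure D2:**
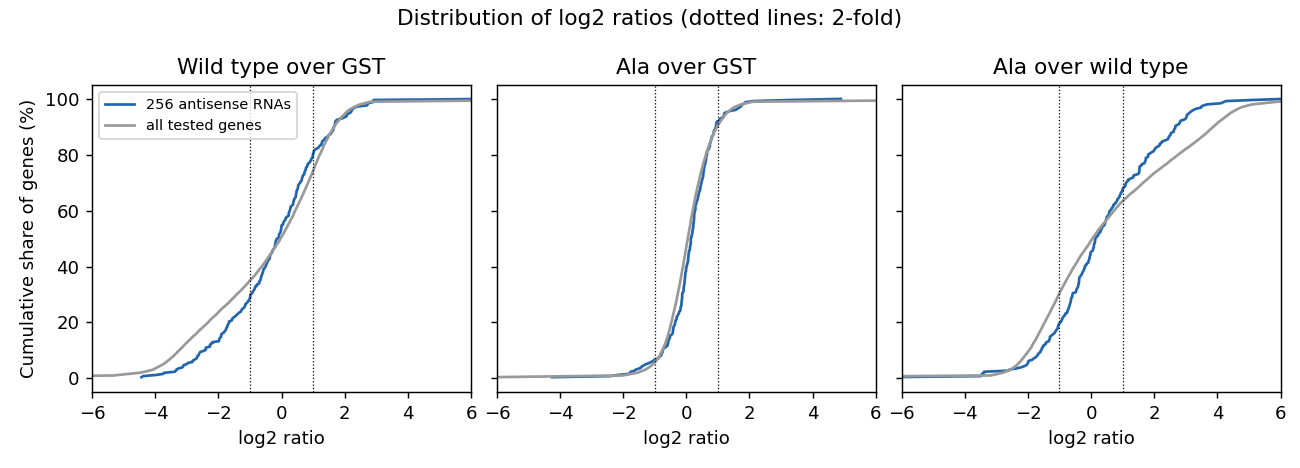
Cumulative share of genes (%) against the log2 ratio, for the 256 antisense RNAs and for all 14082 genes, in each of the 3 comparisons; dotted lines mark 2-fold. In wild type over GST and in Ala over wild type a smaller share of the antisense RNAs than of all genes lies beyond either line, and Ala over GST is the narrowest for both sets.

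Members fell into a few patterns across the libraries. The most frequent beside no call at all (97 members) was lower for wild type than for GST and higher for Ala than for wild type, with Ala over GST not called (60 members). The reverse, higher for wild type than for GST and lower for Ala than for wild type, with Ala over GST not called, held for 28. Higher for both ZFP36L1 forms than for GST were 5 members, namely APOBEC3B-AS1, TBC1D8-AS1, VAC14-AS1, STAM-AS1 and DLX6-AS1, the last with 12 counts for Ala, 15 for wild type and 4 for GST. These 5 were named after their values were seen. The calls share libraries, so these counts describe the members and are not independent of each other. Taken singly, 34.2% of all genes were lower for wild type than for GST and 36.1% were higher for Ala than for wild type. The patterns were not counted over all genes, so these counts do not set members apart from genes in general.

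Base composition ran with the ratios in members as in all genes. The Spearman correlation across members between the GC content of the main transcript and wild type over GST was -0.493 (n = 256 genes measured in the same libraries), against -0.591 over 14081 genes. For Ala over GST it was 0.350 in members and 0.537 in all genes, and for Ala over wild type 0.603 and 0.674. In the 64 members with the lowest GC content, up to 44.2%, 19 were higher for wild type than for GST and 3 were lower. In the 64 with the highest, above 54.2%, 3 were higher and 39 lower. All genes in the same ranges gave 2206 higher and 365 lower of 4868, and 259 higher and 2536 lower of 3727. The 3 members of high GC that were higher for wild type were IER3-AS1, SREBF2-AS1 and ST7-AS1, with 922, 773 and 21 wild-type counts against 295, 227 and 6 for GST. IER3-AS1 has 68.1% of its exonic bases in exons of IER3, which was itself called higher for wild type than for GST, at 1.69. Strand use is not given, so the part of its reads from IER3 was not tested.

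The GC and length fit moved many single ratios. Of the 50 members called higher for wild type than for GST, 43 were called higher after it and 7 were not called. Of the 71 called lower, 26 stayed lower, 43 were not called and 2 were called higher, and 30 of the 135 not called before were higher. Among members named above, USP3-AS1 was at 3.77, STX17-AS1 at 2.75, ZNF793-AS1 at 2.74, RBM26-AS1 at 1.70 and CHMP1B-AS1 at 1.58, and all 5 were still called higher. IER3-AS1 was at 3.54 and EPB41L4A-AS1 at 2.27. FGD5-AS1 changed sign, to -0.35, without a call in either case. The median of the members in wild type over GST was 0.27 after the fit, and Ala over wild type gave 31 higher and 75 lower, against 24.2% and 22.4% of all genes.

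By the median, members with the UAUUUAU core had higher ratios of wild type over GST than members without. The median was 0.98 in the 7 members with 2 or more cores, 0.52 in the 29 with 1 and -0.30 in the 198 with none. Called higher were 3 of 7, 9 of 29 and 30 of 198, and called lower were 0, 5 and 59. Carriers were also longer, with a median length of 1971 bases for 1 core and 832 for none, and of lower GC content, 45.5% and 48.9%. Among members at or below the median GC content the ratio had a median of 0.72 in 24 carriers and 0.13 in 93 others, and above it the medians were 0.09 in 12 carriers and -0.85 in 105 others. In main transcripts of 2000 bases or more they were 0.50 in 20 carriers and -0.37 in 35 others. From 1000 to under 2000 bases they were 0.73 in 13 carriers and -0.475 in 44 others. Under 1000 bases, where there were only 3 carriers, they were -0.22 in those and -0.22 in 119 others. After the GC and length fit the medians drew closer, to 0.51 with 2 or more cores, 0.45 with 1 and 0.22 with none. Then 2 of 7, 10 of 29 and 53 of 198 were called higher, or 28.6%, 34.5% and 26.8%, against 29.3% of all members. Called lower were 0 of 7, 4 of 29 (13.8%) and 27 of 198 (13.6%), so these call shares differed little between 1 core and none. Calls by core were not counted over all genes. For Ala over GST the medians were 0.04 with 2 or more cores, -0.01 with 1 and 0.19 with none, a range much smaller than for wild type.

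Single carriers did not follow the number of cores. MBNL1-AS1, inside the gene of the splicing factor MBNL1, held 3 cores and had 7 counts for Ala, 35 for wild type and 4 for GST, a wild type over GST ratio of 2.90 (1.56 to 5.001). BOLA3-AS1 held 1 and had 83, 259 and 58 counts, a ratio of 2.07 (1.66 to 2.51). SREBF2-AS1, opposite the gene of a sterol-responsive transcription factor, held 2 and had 160, 773 and 227, a ratio of 1.68 (1.47 to 1.91). CBR3-AS1, with 5 cores, had 79 counts for Ala, 89 for wild type and 85 for GST, a ratio of -0.02 (-0.46 to 0.43), an interval that lies within 2-fold in either direction. ZNF674-AS1, with 4, had 43, 103 and 49, a ratio of 0.98 (0.49 to 1.51). C6orf47-AS1, with 1, had 309, 58 and 177, a ratio of -1.68 (-2.15 to -1.26) that became 0.27 after the GC and length fit, and all its exonic bases overlap exons of C6orf47. Among the members with the highest ratios, CHMP1B-AS1 and APOBEC3B-AS1 held no core, and USP3-AS1, STX17-AS1 and ZNF793-AS1 were not searched because their main transcripts differed in length between annotations.

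**Figure D3:**
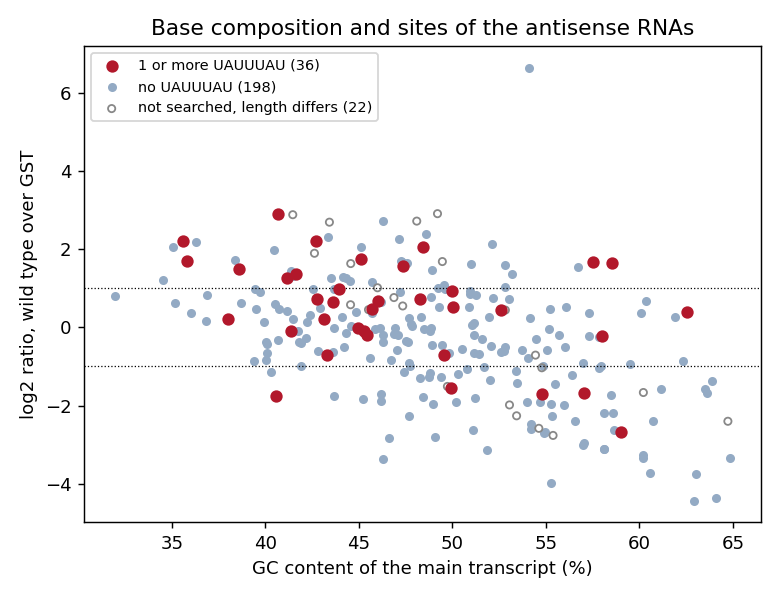
Log2 ratio of wild type over GST against the GC content (%) of the main transcript for 256 antisense RNAs, with the 36 carriers of UAUUUAU in red, the 198 searched transcripts without it in blue and the 22 not searched as open circles; dotted lines mark 2-fold. Points fall from left to right (Spearman -0.493), and the median of carriers exceeds that of the others at or below the median GC content and above it; the top point, APOBEC3B-AS1, had 0 counts for GST and its position depends on the 0.5 counts added.

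Each member was compared with its sense gene, the gene whose symbol remains without -AS1. Such a gene was found for 251 members and reached the minimum count for 216. Antisense TPM was below sense TPM in every library in 122 pairs and above it in every library in 48. In the wild type over GST comparison both genes were higher in 21 pairs and both lower in 27, while 18 pairs were called in opposite directions and 46 had neither called. Taken singly, 44 antisense RNAs of the 216 pairs were higher and 56 lower, and 67 sense genes were higher and 69 lower. Opposite calls among unrelated genes were not counted, so the 18 do not set these pairs apart from genes in general. The median antisense minus sense difference was 0.00. Across the 216 pairs the Pearson correlation between antisense and sense ratios was 0.308, a description of genes that share libraries.

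The correlation between antisense and sense ratios rose with shared exonic sequence in the comparisons that include the wild-type library, but not in Ala over GST. For wild type over GST it was 0.084 in 61 pairs whose exons share no base. It was 0.289 in 105 pairs sharing over 0% to 25% of the antisense exonic bases and 0.543 in 50 pairs sharing more. For Ala over wild type it was 0.151, 0.319 and 0.640. For Ala over GST it was 0.254, 0.055 and 0.126, highest in the pairs whose exons share no base. For wild type over GST both genes were higher in 5 pairs and both lower in 4 of the 61, in 9 and 9 of the 105, and in 7 and 14 of the 50, and they were called in opposite directions in 8, 7 and 3. Since strand use is not given, the part of reads from the sense RNA in the last group was not tested.

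**Figure D4:**
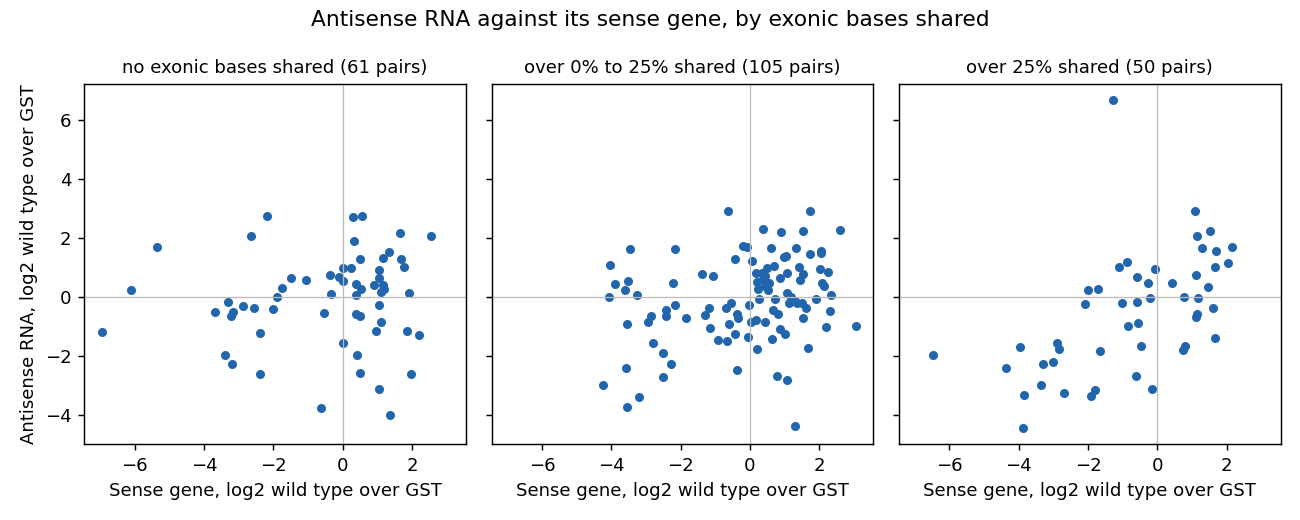
Log2 ratio of wild type over GST of the antisense RNA (vertical) against that of its sense gene (horizontal), 1 point per pair, in panels by the share of antisense exonic bases that overlap exons of the sense gene. Points follow no line where no exonic base is shared (Pearson 0.084) and lie nearer a rising line where over 25% is shared (0.543). Points at 0 counts in a library of the comparison, among them APOBEC3B-AS1, YTHDF3-AS1 and the genes NUTM2B and DLG5, are placed by the 0.5 counts added.

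In 8 of the 18 opposite pairs the antisense RNA was higher and the sense gene lower for wild type than for GST. SRP14-AS1, which starts beside the gene of a signal recognition particle protein on the other strand, had 61 counts for Ala, 166 for wild type and 37 for GST. SRP14 had 8638, 1897 and 11096, so their wild type over GST ratios were 2.07 and -2.63, a difference of 4.70 (4.18 to 5.21). FOXP4-AS1 had 3, 45 and 6 counts, and the forkhead gene FOXP4 had 1574, 404 and 1722, a difference of 4.90 (3.70 to 6.09). The wild-type library was thus highest for each antisense RNA and lowest for each sense gene. PSMB8-AS1 had 149 counts for Ala, 380 for wild type and 118 for GST, and PSMB8, an immunoproteasome subunit gene, had 616, 43 and 455, a difference of 5.07 (4.53 to 5.61). The gene VAC14, whose product is a scaffold of the lipid kinase PIKFYVE complex, had 622 counts for Ala, 34 for wild type and 535 for GST, and VAC14-AS1 differed from it by 5.12 (4.10 to 6.14). PITPNA-AS1 had 314, 578 and 269 counts and PITPNA, a phosphatidylinositol transfer protein gene, 677, 329 and 671, although 69.9% of the antisense exonic bases overlap PITPNA exons.

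In the other 10 the antisense RNA was lower and the sense gene higher for wild type. FOXD2-AS1, which does not overlap FOXD2, had 184 counts for Ala, 38 for wild type and 223 for GST, and FOXD2, another forkhead gene, had 17, 80 and 19, a difference in wild type over GST of -4.58 (-5.45 to -3.72). TMPO-AS1 had 297, 162 and 371 counts and TMPO, which encodes lamina-associated thymopoietins, had 3962, 11810 and 5576, a difference of -2.28 (-2.55 to -2.01). KMT2E had 124 counts for Ala, 710 for wild type and 271 for GST, and differed from KMT2E-AS1 in the same way, as did YTHDF3, an m6A reader gene, with 163, 939 and 344. The remaining sense genes of this kind were CPNE8, FOXN3, JMJD1C, LMO7, SMC2 and WAC. After the GC and length fit 13 pairs were called in opposite directions, KMT2E-AS1 (-1.60) and YTHDF3-AS1 were not called, and FOXD2-AS1 was at -1.05. No pair was called in opposite directions for Ala over GST, where 16 antisense RNAs of these pairs were higher and 13 lower, and 19 pairs were for Ala over wild type. RUSC1-AS1 is not among the 18, because RUSC1, with 1585 counts for Ala, 3600 for wild type and 1994 for GST, was at 0.77 and fell short of 2-fold, but the pair differed by -3.45 (-3.65 to -3.24).

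**Figure D5:**
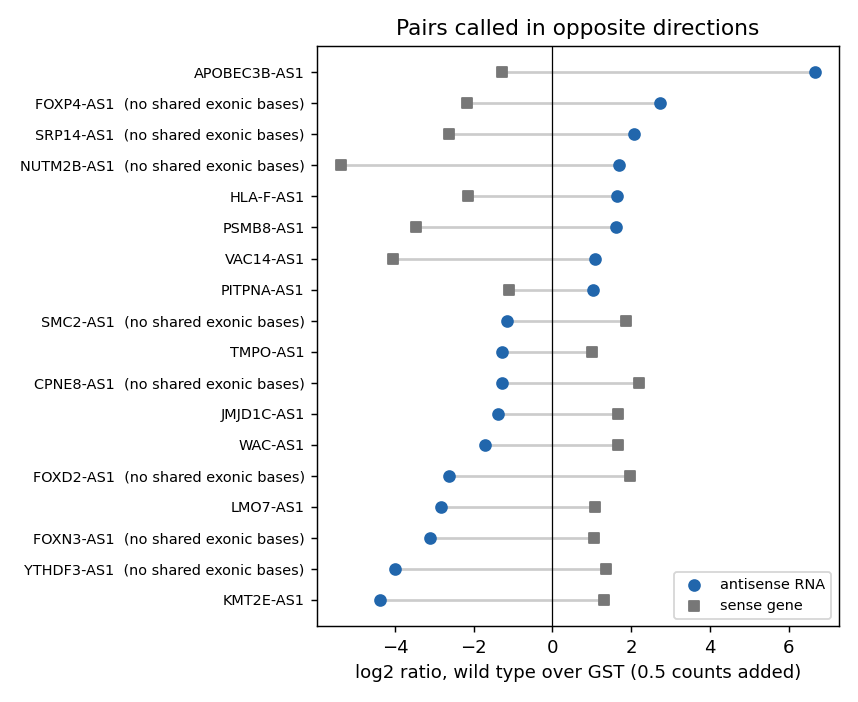
Log2 ratio of wild type over GST for the 18 pairs called in opposite directions, with the antisense RNA as a circle and the sense gene as a square. In 8 pairs the antisense RNA lies right of its sense gene and in 10 left of it, and 8 of the 18 pairs share no exonic base; values of APOBEC3B-AS1, YTHDF3-AS1 and the NUTM2B gene, each at 0 counts in a library, depend on the 0.5 counts added.

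Members were also grouped by how they lie to the sense gene. Of the 256, 94 overlap it head to head, 58 overlap it tail to tail, 42 lie within it, 35 start beside it head to head without overlap and 22 span it, and 5 have no sense gene by name. The 35 without overlap start a median of 123 bases from the sense gene. Their median wild type over GST ratio was 0.23, with 7 higher and 8 lower, against -0.19 in overlapping head-to-head members with 18 higher and 24 lower, -0.03 in tail-to-tail members with 14 and 14, and -0.50 in members within the gene with 7 and 16. Median GC content was 47.7%, 48.9%, 48.4% and 51.1% in these groups. The 22 members that span the sense gene had a median ratio of -0.26, with 4 higher and 7 lower, at 45.7% GC. By exonic overlap with any gene, members sharing over 25% to 50% of their exonic bases stood lowest, with a median of -1.67, 7 higher and 29 lower of 52, and their median GC content was 54.1%. The 56 members without overlap had a median of 0.14, 14 higher and 14 lower, at 48.0% GC. Medians were 0.02 in the 124 members sharing over 0% to 25% and 0.11 in the 24 sharing over 50%, so ratios did not fall steadily with overlap.

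A list of 46 antisense RNAs with a described role in cancer or gene control held 29 members. For wild type over GST 6 of the 29 were higher and 7 lower, with a median of 0.23, against 25.5% and 34.2% of all genes. For Ala over GST none were called (median -0.06), against 9.00% higher and 5.13% lower of all genes. For Ala over wild type 7 were higher and 6 lower, against 36.1% and 30.1% of all genes. No difference between this list and other genes was tested. Higher for wild type than for GST were EPB41L4A-AS1, with 358 counts for Ala, 1357 for wild type and 410 for GST, a ratio of 1.64 (1.48 to 1.81), and SPRY4-AS1, with 33, 138 and 29 and a ratio of 2.15 (1.58 to 2.80). SPRY4-AS1 lies opposite the gene of an inhibitor of receptor tyrosine kinase signalling, whose mRNA had 4061, 12379 and 3741 counts. MAPKAPK5-AS1 had 272 counts for Ala, 413 for wild type and 175 for GST, a ratio of 1.15 (0.90 to 1.42), and FOXP4-AS1 and PITPNA-AS1 were also among those higher.

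Lower beside VPS9D1-AS1, PXN-AS1, FOXD2-AS1 and TMPO-AS1 were DLGAP1-AS1, with 222 counts for Ala, 37 for wild type and 249 for GST, a ratio of -2.82 (-3.37 to -2.33), MNX1-AS1 with 70, 4 and 57, and KDM4A-AS1 with 28, 3 and 18. KDM4A-AS1 was at -2.48 (-5.07 to -0.89). After the GC and length fit MNX1-AS1 (-1.23) and KDM4A-AS1 (-0.92) were not called, while THAP9-AS1 (-1.39), NNT-AS1 (-1.09) and SBF2-AS1 (-1.19) were called lower and SLC16A1-AS1 (2.29) was called higher. CDKN2B-AS1, also known as ANRIL, which recruits Polycomb proteins to its locus, had 18 counts for Ala, 28 for wild type and 20 for GST, a ratio of 0.39 (-0.48 to 1.31). ZEB1-AS1, from the promoter of the mesenchymal factor gene ZEB1, had 50, 159 and 96, a ratio of 0.64 (0.27 to 1.03), although its main transcript held 1 UUAUUUAUU. DDX11-AS1, also known as CONCR and needed for sister chromatid cohesion, had 19, 11 and 20, a ratio of -0.92 (-2.15 to 0.19). These 3 ratios were not called. THUMPD3-AS1 had 172 counts for Ala, 454 for wild type and 216 for GST, and its ratio of 0.99 fell just short of 2-fold. Others, with ratios of wild type over GST from -0.70 in THAP9-AS1 to 0.63 in PSMA3-AS1, were not called and included NNT-AS1, PCBP1-AS1, SBF2-AS1, GABPB1-AS1, TTN-AS1, MCM3AP-AS1, SLC16A1-AS1 and NR2F1-AS1.

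Within a gene the annotated transcripts did not always move alike. Of EPB41L4A-AS1, the transcript of 292 bases had 29 counts for Ala, 315 for wild type and 29 for GST, a wild type over GST ratio of 3.34 (2.81 to 3.96). The transcript of 2969 bases had 180, 808 and 275, a ratio of 1.47 (1.27 to 1.68), and that of 578 bases had 148, 230 and 102, a ratio of 1.09. In THUMPD3-AS1 the transcript of 1867 bases had 0 counts for Ala, 144 for wild type and 0 for GST, while that of 1115 bases had 57, 119 and 133. The main transcript of NUTM2A-AS1 had 333 counts for Ala, 1569 for wild type and 310 for GST, a ratio of 2.26, above the 1.76 of the whole gene. In LRRC75A-AS1 the 4 transcripts with the most counts were all lower for wild type, with ratios from -3.80 to -1.64. Such counts are estimates that divide reads among transcripts that share sequence, so a split between isoforms is less certain than the sum per gene.

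Other long non-coding classes, named by their symbols, were called in both directions for wild type over GST. Of 125 LINC genes 35 were higher and 27 lower (median 0.14), of 27 divergent transcripts (-DT) 11 and 7 (0.86), and of 20 small nucleolar RNA host genes (SNHG) 5 and 7 (-0.21). Among 12 widely studied RNAs 0 were higher and 2 lower, namely UCA1, first described in bladder cancer, with 73 counts for Ala, 17 for wild type and 145 for GST, and CYTOR with 826, 98 and 727. No difference between these classes and the antisense RNAs was tested.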

How the data were processed

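RNA recovered from J82 lysate by GST-ZFP36L1-Ala, GST-ZFP36L1 wild type and GST was sequenced with 1 library each. The submitters' processing notes name kallisto, DESeq2 and hg19; what DESeq2 served for, versions, annotation release and strand use are not given there. Per the file headers, the deposited tables give an estimated count and a TPM for each of 196354 transcripts, with length and effective length.

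Transcript identifiers, versions removed, were looked up in GENCODE 29 (GRCh38) and 92.6% matched; unmatched ones held 4.20% (Ala), 3.79% (wild type) and 3.92% (GST) of counts and were left out. Estimated counts were summed per gene, rounded, and scaled by TMM (edgeR 4.0.16; factors 0.933, 1.05 and 1.03 for Ala, wild type and GST) over the 14082 genes with a mean of 10 or more. Ratios add 0.5 counts, and intervals are exact Clopper-Pearson at 95% on the split of the 2 counts. Antisense minus sense intervals are Wald intervals on the log odds ratio. No test across libraries was possible. The calculation was tried on simulated Poisson counts, which held no variation between preparations and no reads shared among transcripts. The simulation therefore cannot speak to those 2 sources of error. Coordinates, exons and sequences are those of GENCODE 29 on GRCh38, not of the authors' build.

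Members named are the 8 with the highest mean count, the 6 highest and 6 lowest called in each comparison by the interval bound nearest to no difference, the 5 pairs with the largest differences, and a list of RNAs with described roles, of which some are not reported here by name; others are named in counts of 5 or fewer or as sequence examples or opposite pairs. The members and all lists were chosen with earlier results of these data known. Alternatives were DESeq2 1.42.0 size factors, total-count scalings, TPM, other minimum counts, main transcripts only, members without exon overlap, and a fit on GC content and length.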

Additional observations from a re-analysis of the deposited data

How the results depend on the processing

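No paired analysis was possible because there is 1 library per protein and no shared replicate number. Of the counts and medians under each alternative, 91 stayed within 1.5 times the reported count or inside the median's own interval. Another 42 moved beyond that, and 2 medians whose own interval excluded 0 changed sign. Of 27 median ratios 9 changed sign, and of 27 median antisense minus sense differences 2 did; the cause was not tested except where fewer genes entered. For Ala over GST the median was 0.013 with total counts, -0.062 with totals from which ribosomal RNA, mitochondrial genes and the 20 genes of highest count were removed, -0.044 with TPM (called by fold alone), 0.026 without exon overlap and 0.035 with the GC and length fit. Members higher and lower numbered 11 higher with those reduced totals, 7 and 6 with TPM, 34 and 23 with no minimum (612 genes), 33 and 26 with main transcripts; opposite pairs numbered 1, 1, 2, 2, 4 and 1 with total counts, reduced totals, TPM, no minimum, main transcripts and the fit. With a minimum mean of 100 counts (74 members) higher and lower were 17 and 23 for wild type over GST, 3 and 2 for Ala over GST, and 26 and 18 for Ala over wild type, with 4 and 5 opposite pairs in the comparisons with wild type and a median antisense minus sense difference of 0.544 for Ala over wild type. Without exon overlap (56 members) they were 14 and 14, 6 and 4, and 16 and 16; wild type over GST had a median of 0.144 and 7 opposite pairs, Ala over GST a difference of 0.273, and Ala over wild type 5 opposite pairs. The Ala over wild type median was -0.174 with reduced totals and -0.123 with TPM. With the fit, chosen after the data were seen, 34 were lower for wild type over GST (median 0.273), and for Ala over wild type 31 were higher (median -0.285) with 12 opposite pairs. Of the ratios of named members, 990 in all, 64 changed sign, 24 of them with the fit; most of these were not called in either setting. Calls were lost in 45 and gained in 30, and 2 called ratios changed sign: ATP6V0E2-AS1 to -0.633 for Ala over wild type with the fit, and KCNMB2-AS1 to 0.43 for Ala over GST with its main transcript. With 1 library per protein, differences between preparations cannot be told apart from differences between proteins, and 106 members with a mean under 30 counts carry wide intervals.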
